A study of Mus musculus with 2 samples.

Results

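The measurements concern 10 genes of the Notch pathway and of the secretory cell lineages in single cells from mouse small intestine. They are the ligands Dll1 and Dll4, the receptors Notch1 and Notch2, the Notch target Hes1, and the transcription factors Atoh1, Spdef, Gfi1, Neurog3 and Neurod1. The genes were taken by symbol from the feature lists of both matrices, where each of the 10 matched 1 of 56980 features. Droplet-based 10x Genomics RNA sequencing was done on 1 library labelled control and 1 labelled model, and the levels are described over crypt, goblet, Paneth, enteroendocrine and tuft cells. Both libraries came from small intestine freed of mesentery and Peyer's patches, and cells were released by EDTA followed by an enzyme digest (collagenase, DNase). The series title names a compound, CB001, and the combination of simulated microgravity with radiation. The labels state neither the treatment, strain, age and number of the animals behind the control or the model library, nor the stretch of intestine. With 1 library in each group, all differences are between a pair of libraries, with no replicate check and no test. The identifiers in the matrices are ENSMUSG00000014773 for Dll1, ENSMUSG00000027314 for Dll4, ENSMUSG00000026923 for Notch1, ENSMUSG00000027878 for Notch2, ENSMUSG00000022528 for Hes1, ENSMUSG00000073043 for Atoh1, ENSMUSG00000024215 for Spdef, ENSMUSG00000029275 for Gfi1, ENSMUSG00000044312 for Neurog3 and ENSMUSG00000034701 for Neurod1.

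In the intestinal crypt, dividing progenitors that receive Notch signals from their neighbours keep Hes1 on, and Hes1 represses Atoh1. Cells that escape the signal switch on Atoh1, display the ligands Dll1 and Dll4, and become secretory. Downstream of Atoh1, Spdef and Gfi1 are known for goblet and Paneth cells, and Neurog3 followed by Neurod1 for the hormone-producing enteroendocrine cells.

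After filtering, 7329 control and 7913 model cells remained, with medians of 3636 and 3761 unique molecular identifiers (UMIs, tags that each mark 1 captured RNA molecule) per cell and median mitochondrial shares of 10.8% and 5.38%. The libraries shared 28 barcodes, 12 of them among the kept cells. Cells were clustered without the 10 genes and without the pathway lists used below, so that none of these genes shaped the class it was measured in. Classes were named from markers and are written with "-like". The crypt-like cluster raised 21 of 22 crypt markers, the goblet-like cluster 10 of 11, the Paneth-like cluster 10 of 10, the enteroendocrine-like cluster 15 of 16 and the tuft-like cluster 12 of 13. Control and model held 665 and 740 crypt-like cells, 360 and 349 goblet-like, 88 and 8 Paneth-like, 80 and 146 enteroendocrine-like, and 77 and 58 tuft-like cells. UMIs were summed over the cells of a class and scaled to 1000000 UMIs of that class and library (here called CPM), with exact Poisson 95% intervals. All intervals cover counting error only, since UMIs from 1 library are not independent animals. In summed RNA, fewer cells that express a gene and less RNA per expressing cell cannot be told apart.

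The 250 bases before the start site of 5 of the genes are shown because these genes carry the class patterns and the goblet difference in Dll4 reported below. They come from RefSeq on GRCm38.p6, a build other than that of the matrices, and are written 5′ to 3′ on the gene's strand. Of the 10 genes, 9 had an entry, with 11 windows in all. Dll4 lies at chr2:119325534-119325783 on the plus strand, Atoh1 at chr6:64728875-64729124 (plus), Spdef at chr17:27728952-27729201 (minus), Neurog3 at chr10:62132840-62133089 (plus) and Neurod1 at chr2:79456637-79456886 (minus). Capitals mark the E-box CANNTG, which reads the same on both strands and is the letter pattern that basic helix-loop-helix factors such as Atoh1, Neurog3 and Neurod1 can bind.
Dll4: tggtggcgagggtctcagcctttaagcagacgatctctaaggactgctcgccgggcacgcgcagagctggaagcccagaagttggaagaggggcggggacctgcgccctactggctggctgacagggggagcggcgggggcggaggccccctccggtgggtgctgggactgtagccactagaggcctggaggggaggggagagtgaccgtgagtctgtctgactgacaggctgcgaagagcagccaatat
Atoh1: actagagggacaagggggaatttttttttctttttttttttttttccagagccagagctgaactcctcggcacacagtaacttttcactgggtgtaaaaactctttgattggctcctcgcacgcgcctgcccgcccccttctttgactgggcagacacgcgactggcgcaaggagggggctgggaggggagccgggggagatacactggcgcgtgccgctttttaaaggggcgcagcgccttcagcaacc
Spdef: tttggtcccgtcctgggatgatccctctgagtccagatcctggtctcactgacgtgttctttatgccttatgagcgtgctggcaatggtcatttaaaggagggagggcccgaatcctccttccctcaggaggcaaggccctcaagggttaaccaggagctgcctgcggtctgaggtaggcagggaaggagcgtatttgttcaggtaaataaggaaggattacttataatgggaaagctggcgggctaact
Neurog3: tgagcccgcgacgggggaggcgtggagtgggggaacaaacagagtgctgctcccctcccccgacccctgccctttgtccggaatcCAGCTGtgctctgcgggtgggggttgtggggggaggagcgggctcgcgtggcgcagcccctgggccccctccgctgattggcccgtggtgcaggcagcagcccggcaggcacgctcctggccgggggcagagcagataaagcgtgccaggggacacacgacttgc
Neurod1: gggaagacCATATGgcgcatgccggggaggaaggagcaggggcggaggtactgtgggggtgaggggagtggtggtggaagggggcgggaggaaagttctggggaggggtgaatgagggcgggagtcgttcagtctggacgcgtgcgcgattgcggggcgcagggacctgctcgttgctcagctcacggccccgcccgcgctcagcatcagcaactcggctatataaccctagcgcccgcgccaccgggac
Neurog3 had 1 E-box, CAGCTG, starting 165 bases before the start site, and Neurod1 had 1, CATATG, starting 242 bases before it. The windows of Dll4, Atoh1 and Spdef held none. Over all the genes, 6 of 11 windows, from 4 genes, held an E-box, against 66.2% of 32851 RefSeq windows of 250 bases. CAGCTG itself was in 13.0% of those windows. The N-box CACNAG, searched on both strands as a pattern that Hes factors can bind, was in 3 of the 11 windows (Dll4, Notch1 and Notch2) and in 36.7% of all windows. GTGGGAA, the core bound by the Notch cofactor RBPJ, was in 0 of the 11 windows on either strand and in 5.42% of all windows. These matches describe letters in a short window and do not show that a factor binds there.

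Among the ligands, Dll1 was highest in goblet-like cells of both libraries. In the control library it had 466 UMIs in goblet-like cells (94.96 CPM, 86.5 to 104), and in the model library 379 UMIs (87.0 CPM, 78.4 to 96.2). The other 4 classes held between 16.5 and 28.2 CPM in the control library, with intervals that overlapped their neighbours in the order, and crypt-like cells were lowest there, at 238 UMIs. In the model library crypt-like cells were again lowest, with 221 UMIs and 13.2 CPM. A UMI of Dll1 was seen in 33.3% of control and 42.1% of model goblet-like cells. Both shares stood far above those of T cell-like cells, which served as a class that should lack the ligand (0.859% and 1.32%, at median depths of 3236.5 and 2762 UMIs per cell, against 7224.5 and 9479 in goblet-like cells). Enterocyte-like cells, the absorptive cells, held 574 and 565 UMIs (51.7 and 43.6 CPM), between the goblet level and the rest.

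Dll4, the other Delta-type ligand, followed a different order. In the control library goblet-like cells (170 UMIs, 34.6 CPM, 29.6 to 40.3) and enteroendocrine-like cells (44 UMIs, 33.7 CPM, 24.5 to 45.3) were level within their counting intervals. In the model library goblet-like cells stood apart, with 269 UMIs and 61.7 CPM (54.6 to 69.6), against 49 UMIs and 29.2 CPM (21.6 to 38.7) in enteroendocrine-like cells. Crypt-like cells held 46 and 52 UMIs, or 3.194 and 3.101 CPM, in control and model. Tuft-like cells held 6 and 2 UMIs. Among the crypt and secretory classes, Dll4 was thus concentrated in goblet-like and enteroendocrine-like cells. Of those classes with enough UMIs to compare, only goblet-like cells separated the libraries. Endothelial cells, given below, held more Dll4 in both libraries, and their counting intervals did not overlap between the libraries.

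Among the 5 classes, the receptor Notch1 was highest in crypt-like cells of the control library, with 806 UMIs and 56.0 CPM (52.2 to 60.0), and nearly level there in the model library, with 877 UMIs and 52.3 CPM (48.9 to 55.9). A Notch1 UMI was found in 51.1% of control and 49.7% of model crypt-like cells. Goblet-like cells held 88 and 42 UMIs, enteroendocrine-like cells 23 and 55, and tuft-like cells 10 and 25. The crypt level therefore stood above the secretory levels in the control library, whereas in the model library the tuft-like interval (29.3 to 66.8 CPM) overlapped that of crypt-like cells. Enterocyte-like cells, at 1.80 and 2.39 CPM, were far below all of these. Notch2, the second receptor expressed in the epithelium, had 175 UMIs in crypt-like cells of each library (12.2 and 10.4 CPM). It was at 3.46 and 3.67 CPM in goblet-like cells, and tuft-like cells held 0 and 2 UMIs.

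Hes1, the repressor that reads out Notch signalling, was higher in crypt-like cells than in goblet-like, enteroendocrine-like and tuft-like cells of both libraries. It had 2616 UMIs and 182 CPM (175 to 189) in the control and 3546 UMIs and 211 CPM (205 to 219) in the model library. Goblet-like cells held 463 and 396 UMIs (94.3 and 90.9 CPM), enteroendocrine-like cells 101 and 160 (77.4 and 95.5 CPM), and tuft-like cells 39 and 48 (64.6 and 86.8 CPM). The intervals of goblet-like and enteroendocrine-like cells overlapped in both libraries, so those classes had no resolved order. Summed Hes1 in goblet-like, enteroendocrine-like and tuft-like cells was thus below the crypt level and above T cell-like cells (8.02 and 8.79 CPM). Few tuft-like and enteroendocrine-like cells carried it on the second clustering described below. The tuft-like sub-cluster had Hes1 in 11 of 76 control and 11 of 58 model cells, with 32 of 41 and 28 of 44 UMIs in 3 cells. The enteroendocrine-like sub-cluster led by Gip and Ghrl had it in 12 of 58 and 14 of 97 cells, with 41 of 64 and 52 of 94 UMIs in 3 cells. Paneth-like cells were also below the crypt in the control library. In the model library the Paneth-like interval overlapped that of crypt-like cells, but it rests on the few cells given below.

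Atoh1, the factor that commits cells to the secretory fate, was highest in goblet-like cells. There it had 479 UMIs and 97.6 CPM (89.1 to 107) in the control and 542 UMIs and 124 CPM (114 to 135) in the model library, in 45.3% and 50.4% of cells. Crypt-like cells held 8 and 18 UMIs in 4 and 14 cells, enteroendocrine-like cells 8 and 5, and tuft-like cells 0 and 0. The tuft zeros allow up to 4.97 CPM in control and 5.43 CPM in model cells (3 UMIs of the class total). Control Paneth-like cells held 23 UMIs (46.0 CPM, 29.2 to 69.1), the next highest of the 5 classes. These UMIs lay in 9 cells, and the 3 richest held 17. T cell-like cells had 2 UMIs in each library, in 0.172% and 0.0851% of cells.

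Spdef, which drives goblet and Paneth cell maturation, had 382 UMIs and 77.8 CPM (70.2 to 86.1) in control and 363 UMIs and 83.3 CPM (75.0 to 92.3) in model goblet-like cells, in 48.1% and 53.9% of cells. Tuft-like cells held 6 UMIs in each library, spread over 6 cells, or 9.94 and 10.9 CPM. Control Paneth-like cells held 9 UMIs (18.0 CPM). Crypt-like cells held 5 and 9 UMIs, and T cell-like cells 1 and 1. Spdef thus had the same leading class as Atoh1 and, unlike Atoh1, a small count in tuft-like cells.

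Gfi1, a repressor that acts between Atoh1 and the goblet and Paneth fates, was sparse. Goblet-like cells held 35 UMIs (7.13 CPM, 4.97 to 9.92) in the control and 53 UMIs (12.2 CPM, 9.11 to 15.9) in the model library, in 8.06% and 10.9% of cells. Enteroendocrine-like cells held 0 in both libraries, which allows up to 2.30 and 1.79 CPM. Enterocyte-like cells, as background, held 4 and 10 UMIs in 0.217% and 0.706% of cells.

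The enteroendocrine factors Neurog3 and Neurod1 were highest in enteroendocrine-like cells. Neurod1, which follows Neurog3 in the hormone-producing lineage, had 953 UMIs and 730 CPM (685 to 778) in control and 1042 UMIs and 622 CPM (585 to 661) in model enteroendocrine-like cells. It was seen in 75 of 80 control cells (93.8%, exact Clopper-Pearson interval 86.0 to 97.9) and in 108 of 146 model cells (74.0%, 66.1 to 80.9). The model cells were shallower, with a median of 6989.5 UMIs against 11566.5. After every cell was thinned to 1000 UMIs, which left out 12 shallower model cells and no control cell, the shares were 50.0% (38.6 to 61.4) and 46.3% (37.6 to 55.1), with overlapping intervals. No other of the 5 classes exceeded 1.61 CPM of Neurod1, and T cell-like cells held 3 and 4 UMIs. Neurog3, the factor that starts the lineage, had 63 UMIs (48.3 CPM) in control and 73 UMIs (43.6 CPM) in model enteroendocrine-like cells, in 10 and 16 cells. It was at 0 in T cell-like, Paneth-like and tuft-like cells of both libraries, and the tuft zeros allow up to 4.97 and 5.43 CPM.

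**Figure D1:**
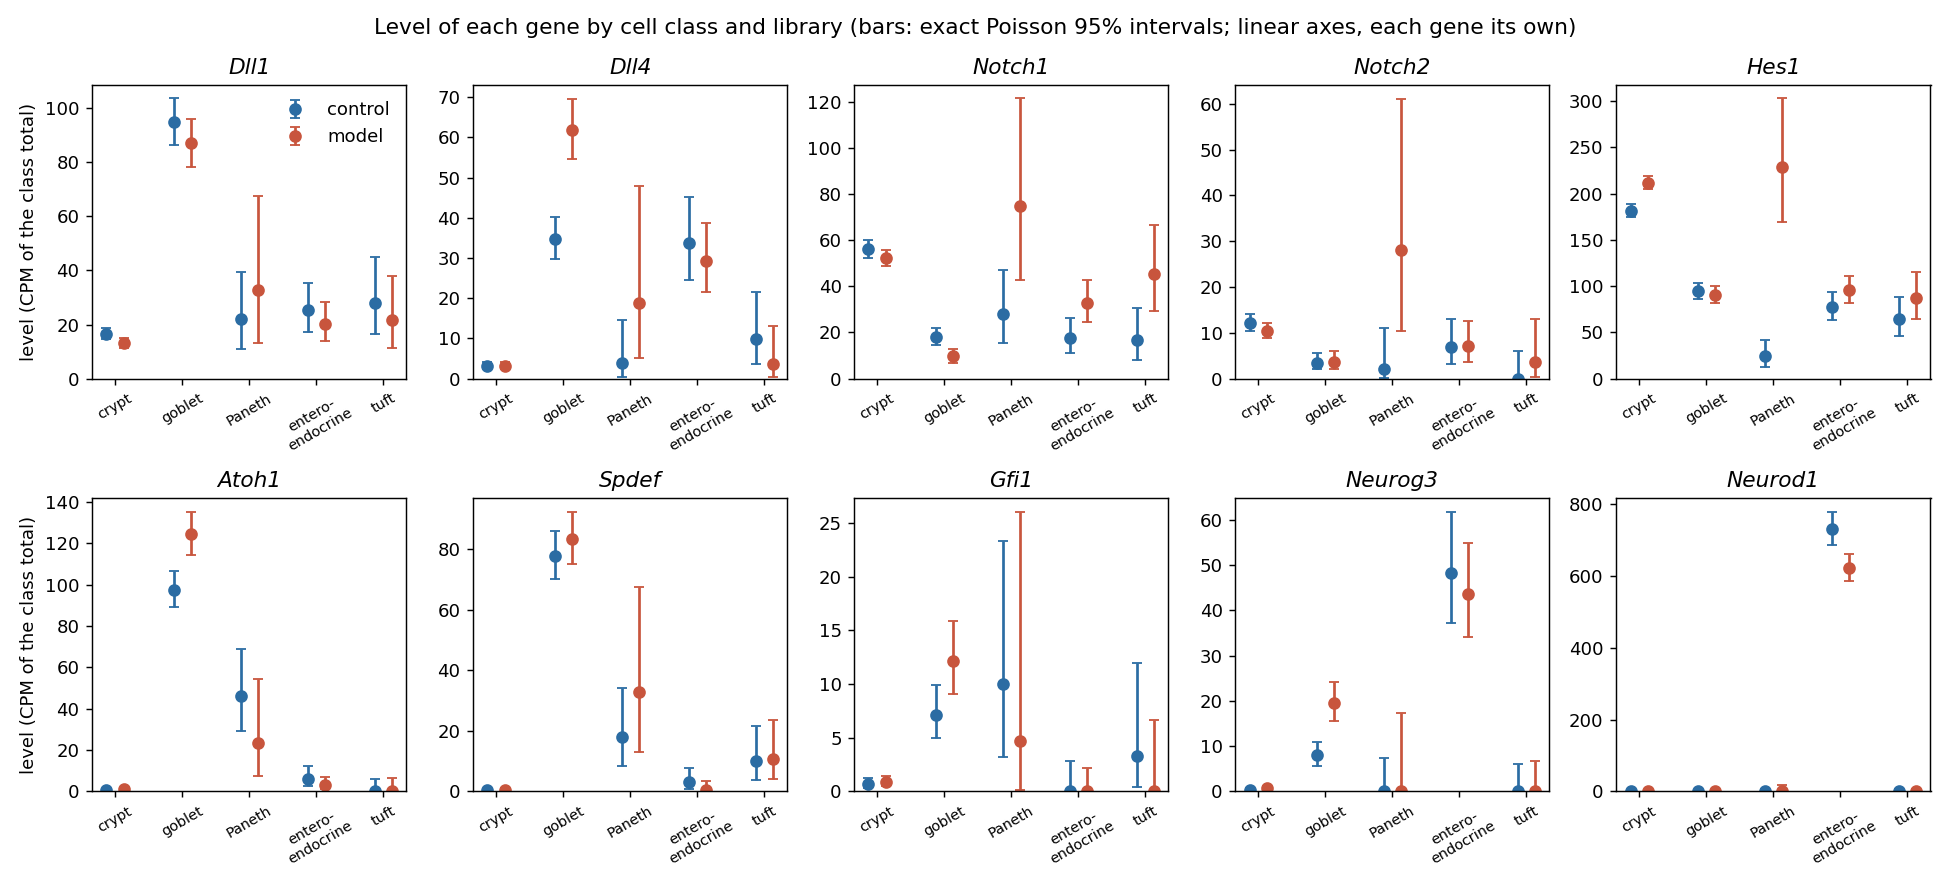
Level of each of the 10 genes (CPM of the class total, linear axes that differ between genes) in the 5 classes, with control in blue, model in red and exact Poisson 95% intervals as bars. Atoh1 and Spdef peak in goblet-like cells and Neurod1 and Neurog3 in enteroendocrine-like cells in both libraries, and the wide model Paneth bars rest on 8 cells.

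Control was set against model within each class by the ratio of CPM, model over control, with an exact binomial 95% interval on the split of the UMIs. A gene was called higher when its ratio reached 1.5 and lower when it reached the inverse, provided the interval left out 1 and the gene had at least 20 UMIs over both libraries in a class of at least 50 cells in each. Of 50 gene and class pairs, 26 met these minimums. Of these, 5 were called higher, 1 lower and 20 were not called. By class, 1.75% to 8.53% of all features were called higher and 3.79% to 6.53% lower, as given below. The called pairs lay in goblet-like, enteroendocrine-like and tuft-like cells.

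**Figure D2:**
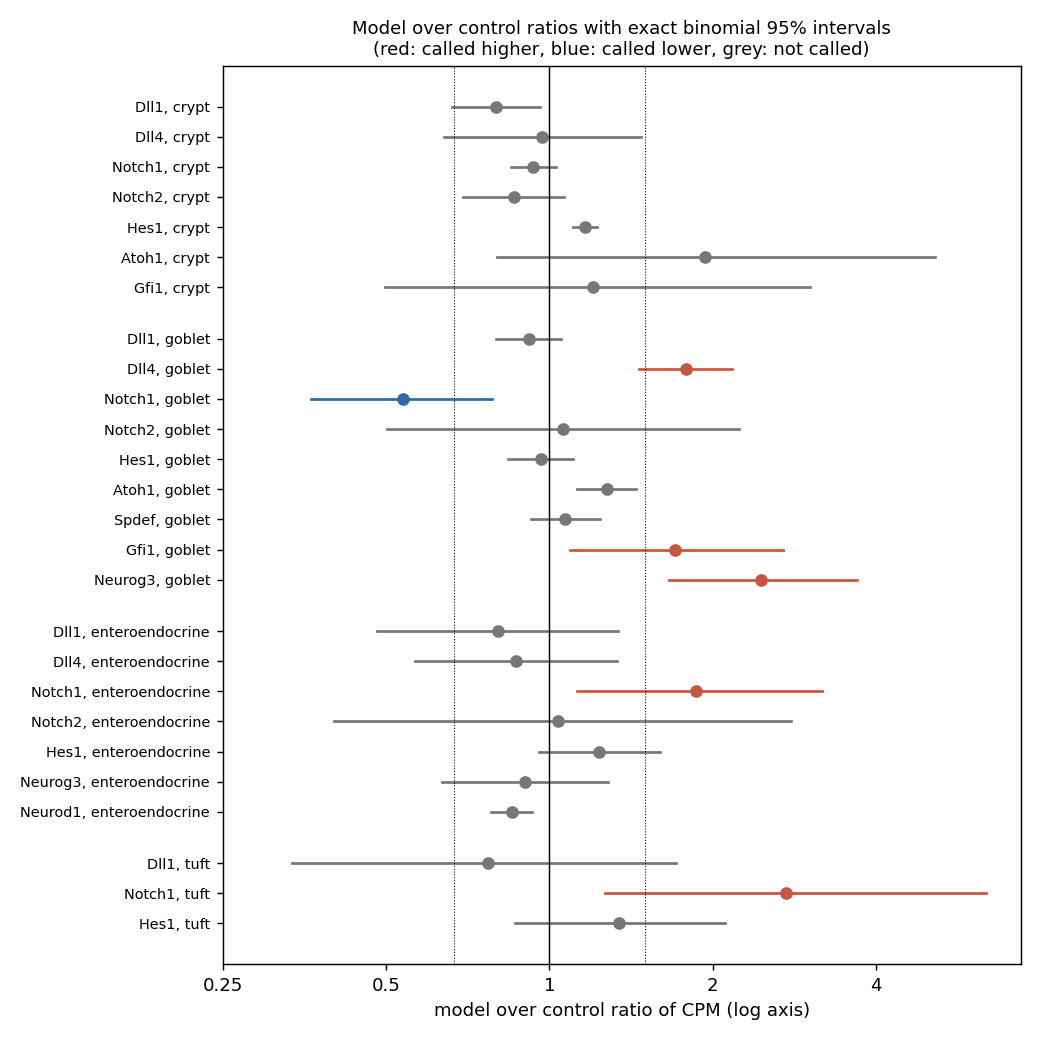
Model over control ratio of CPM on a log axis for the 26 pairs with enough UMIs, with exact binomial 95% intervals; red points were called higher, blue lower and grey not called, and dotted lines mark 1.5-fold. Dll4, Gfi1 and Neurog3 in goblet-like cells and Notch1 in enteroendocrine-like and tuft-like cells lie to the right, and Notch1 in goblet-like cells lies to the left.

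In crypt-like cells 0 of the 7 genes with enough UMIs were called, where 1.75% of 13805 features were called higher and 4.01% lower. Hes1 went from 182 to 211 CPM, a ratio of 1.16 (1.11 to 1.23), and Dll1 from 16.5 to 13.2 CPM, a ratio of 0.798 (0.661 to 0.962). Both intervals excluded 1 while both ratios stayed inside 1.5-fold. Notch1 (0.935, 0.848 to 1.03) and Notch2 (0.859, 0.693 to 1.07) had intervals that excluded a 1.5-fold difference either way. The intervals of Atoh1 (1.93, 0.800 to 5.14), Gfi1 (1.20, 0.497 to 3.03) and Dll4 (0.971, 0.640 to 1.48) were wide. Neurod1 had 2 and 17 UMIs and Neurog3 4 and 12 in these cells, under the minimum, and 10 of the 17 Neurod1 UMIs lay in 3 cells.

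In goblet-like cells 3 of 9 genes were called higher, where 4.85% of 11329 features were, and 1 of 9 was called lower, where 4.6% were. The ligand Dll4 went from 34.6 to 61.7 CPM, a ratio of 1.78 (1.47 to 2.17), and its UMIs were spread over 97 control and 143 model cells, of which the 3 richest held 14 and 21. Notch1 went the other way, from 17.9 to 9.64 CPM, 1.86-fold lower (1.27 to 2.75). Gfi1 went from 7.13 to 12.2 CPM, a ratio of 1.71 (1.09 to 2.69) whose interval comes close to 1. Neurog3 went from 7.95 to 19.5 CPM, a ratio of 2.45 (1.66 to 3.68), but from 4 control and 13 model cells, of which the 3 richest held 37 of 39 and 44 of 85 UMIs. Atoh1 (1.27, 1.12 to 1.44), Spdef (1.07, 0.924 to 1.24), Dll1 (0.916, 0.798 to 1.05) and Hes1 (0.963, 0.840 to 1.10) were not called. The well-counted goblet factors thus differed by less than 1.5-fold while the ligand Dll4 was higher in the model library.

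Other signals moved with the goblet class. Enterocyte markers summed to 5149 CPM in control and 12418 CPM in model goblet-like cells, with 13 of 13 seen in each. Plasma cell markers went from 6074 to 3598 CPM with 9 of 10 seen and Mzb1 at 0 in each, and crypt markers from 2331 to 1631 CPM with 22 of 22 seen. Paneth markers (2238 and 2042.5 CPM) and enteroendocrine markers (280.0 and 280.2 CPM, 13 and 14 of 16 seen) were nearly level. T cell markers went from 192 to 366 CPM, with 11 and 9 of 11 seen and Cd4 and Cd2 at 0 in the model library, and T cell-like cells held 55.2 and 75.8 CPM of Gfi1 and 50.7 and 70.5 CPM of Notch1. Enterocyte-like cells held 11.3 and 9.10 CPM of Dll4. The part of these marker signals in the goblet differences was not tested. The Gfi1 and Notch1 calls ended without the cells with the highest doublet scores, and that of Gfi1 also with at most 10% mitochondrial UMIs. Notch1 was under the minimum for a call with at most 10% mitochondrial UMIs (6 and 5 UMIs), and both genes did after thinning to 1000 UMIs per cell. Of its 13 alternatives, the Dll4 call ended after thinning, which left 12 and 20 UMIs.

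In enteroendocrine-like cells 1 of 7 genes was called higher, where 3.5% of 10550 features were, and 0 lower, where 3.79% were. Notch1 had 23 UMIs in 11 control cells and 55 UMIs in 24 model cells, or 17.6 and 32.8 CPM, a ratio of 1.86 (1.13 to 3.17). Crypt markers stood at 2034 and 2406 CPM in these cells and T cell markers at 29.9 and 365 CPM (7 and 9 of 11 seen, Cd4 and Cd2 at 0 in both), and their part in the Notch1 difference was not tested. Neurod1 (0.851, 0.779 to 0.930) and Neurog3 (0.902, 0.635 to 1.28) were not called, nor were Hes1 (1.23, 0.955 to 1.60), Dll1 (0.802, 0.482 to 1.34), Dll4 (0.867, 0.565 to 1.33) and Notch2 (1.04, 0.401 to 2.79). The Notch1 call ended with at most 10% mitochondrial UMIs, at Leiden resolution 0.5 and without the highest doublet scores. On the second clustering described below, the sub-cluster led by Gip and Ghrl held 20 and 31 Notch1 UMIs (1.32, 0.726 to 2.43, not called). Another led by Tac1, Reg4 and Chga (17 and 45 cells) held 3 and 24, with 17 of the 24 in 3 cells.

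In tuft-like cells, chemosensory cells of the epithelium, 1 of 3 genes was called higher, where 8.53% of 6940 features were, and 0 lower, where 6.53% were. Notch1 had 10 UMIs in 8 of 77 control cells and 25 UMIs in 14 of 58 model cells, or 16.6 and 45.2 CPM, a ratio of 2.73 (1.27 to 6.37). T cell markers stood at 527 CPM in control and 147 CPM in model tuft-like cells (9 of 11 seen in each), and goblet markers at 401 and 2772 CPM (10 of 11 seen in each). The part of either in the Notch1 difference was not tested. Hes1 (1.34, 0.863 to 2.11) and Dll1 (0.771, 0.336 to 1.71) were not called. A single model tuft-like cell held 112758 UMIs, against a class median of 4546. On the second clustering described below it joined an unnamed sub-cluster led by F3, Apol10a and Car4. It held 10 of the 48 model Hes1 UMIs and 0 of Notch1. Its part in the calls of single list genes in tuft-like cells, given below, was not tested. The Notch1 call ended with cells named by their own marker scores, and after thinning, which left 1 and 1 UMI, and without the 3 richest cells of each library (5 and 14 UMIs) too few UMIs were left for a call.

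The Paneth-like class had 8 model cells, so no ratio was formed. Control Paneth-like cells held 23 UMIs of Atoh1, 14 of Notch1, 12 of Hes1, 11 of Dll1, 9 of Spdef, 5 of Gfi1, 2 of Dll4 and 1 of Notch2 at a median of 1429.5 UMIs per cell. The 8 model cells had a median of 18861.5 UMIs and held 49 UMIs of Hes1, 48 of them in 3 cells, with 16 of Notch1, 7 of Dll1, 7 of Spdef and 5 of Atoh1. The model cells of this class were therefore few and far deeper than the control cells.

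The goblet-like class was not uniform. When crypt and secretory cells were clustered again, still without the 10 genes, one goblet-like sub-cluster was led by Zg16 and Clca1, mucus components of mature goblet cells (106 control and 150 model cells), and another by Ccl9, Agr2, Guca2a and Spink4 (66 and 70 cells). Differences between sub-clusters are a description. Notch1 had 55 and 31 UMIs (28.3 and 20.9 CPM) in the Ccl9 and Agr2 group against 1 and 1 UMI in the Zg16 group. Goblet-like cells of the Agr2 group held 54 of the 88 control and 23 of the 42 model Notch1 UMIs of the class, and the rest lay in other sub-clusters. Notch2 had 14 and 14 UMIs in the Agr2 group against 0 and 0. Hes1 followed them, at 143 and 166 CPM against 50.0 and 54.5 CPM. Dll1 was also higher in the Agr2 group, at 161 and 109 CPM against 53.7 and 70.2 CPM.

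Atoh1 ran the opposite way, at 186 CPM in control and 230 CPM in model cells of the Zg16 group and 83.9 and 108 CPM in the Agr2 group. Dll4 also leaned to the Zg16 group, at 55.5 and 108 CPM against 39.6 and 56.7 CPM. Between these groups the intervals did not overlap for Atoh1, Hes1, Dll1 and Notch1 in either library. For Dll4 they overlapped in the control library only.

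**Figure D3:**
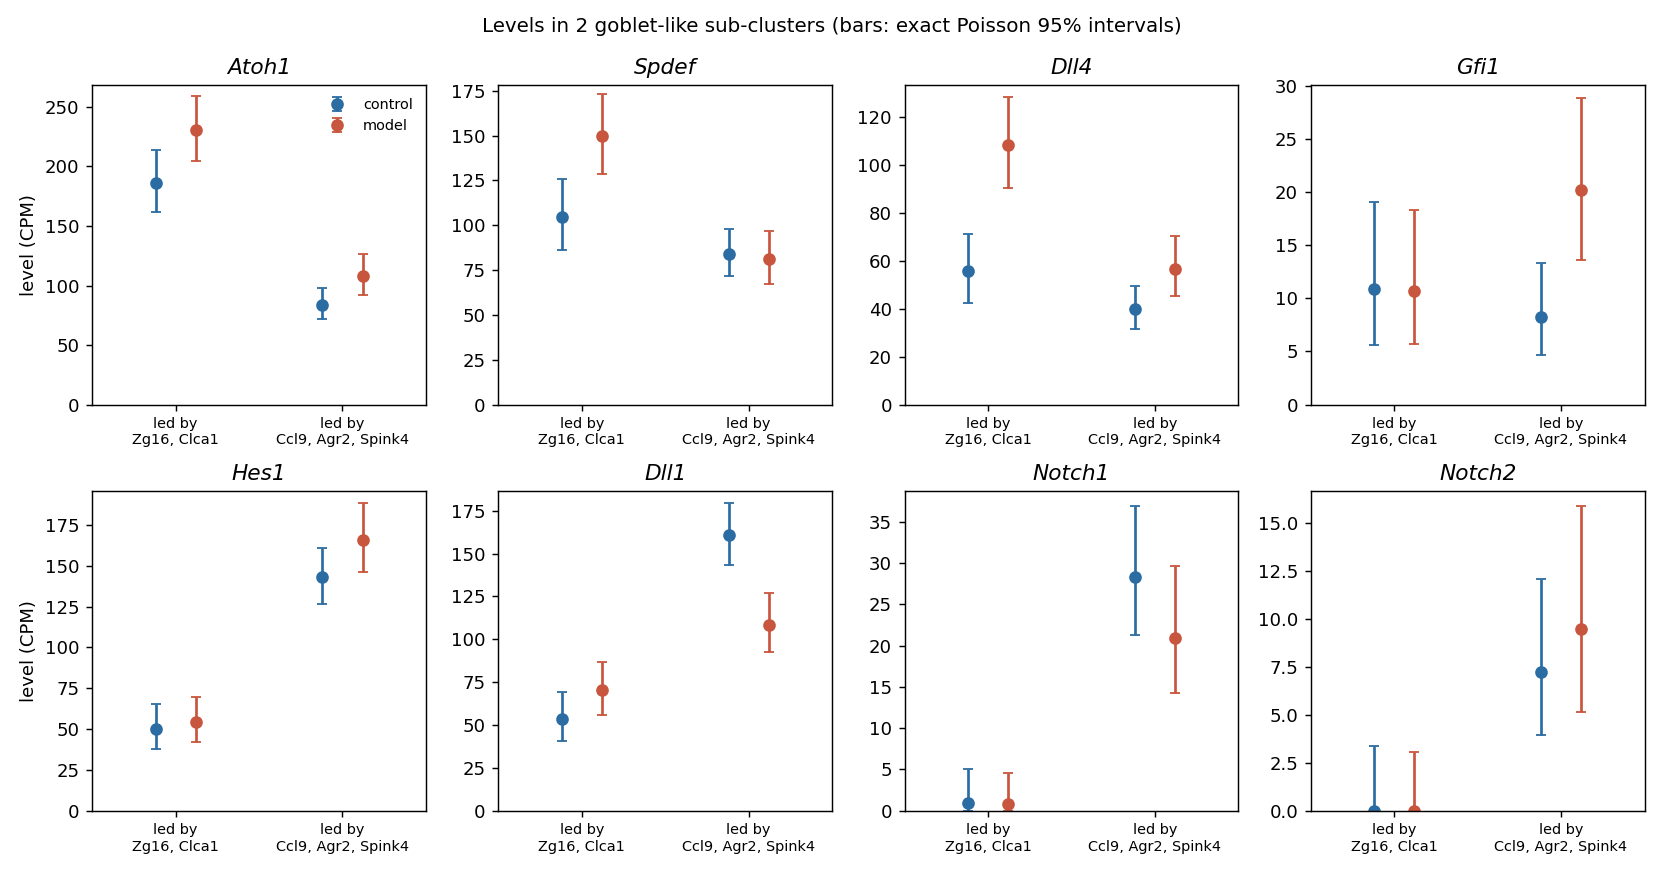
Levels (CPM, linear axes from 0) of 8 genes in the goblet-like sub-clusters led by Zg16 and Clca1 and by Ccl9, Agr2 and Spink4, control in blue and model in red, with exact Poisson 95% intervals. Atoh1 is higher on the left and Hes1, Dll1 and Notch1 on the right in both libraries, and the Dll4 gap between libraries is widest on the left.

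Over the 10 sub-clusters with at least 50 cells in each library, 49 gene and sub-cluster pairs had enough UMIs, of which 7 were called higher and 1 lower. Over all features, 2.97% of the 91308 such pairs with enough UMIs were called higher and 3.39% lower. In the Zg16 group Dll4 went from 61 to 131 UMIs, a ratio of 1.95 (1.43 to 2.69), where 4.35% of features were called higher. In the Agr2 group Gfi1 went from 16 to 30 UMIs, a ratio of 2.46 (1.30 to 4.83), where 2.37% were. Neurod1 was called there too, from 7 to 15 UMIs, but all 15 model UMIs came from 1 cell. Notch1 was not called in the Agr2 group. The mix of goblet-like sub-clusters differed between the libraries, since a sub-cluster led by Ly6m and Ido1 held 50 and 12 cells and one led by Mgp and Dcn, with a median of 1203 UMIs per cell, held 87 and 34. In the tuft-like sub-cluster Notch1 went from 12 to 26 UMIs, a ratio of 2.80 (1.37 to 6.10), where 6.35% of features were called higher.

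Crypt-like cells also divided. The sub-cluster led by the stem cell genes Olfm4, Ascl2 and Axin2 (102 and 149 cells) had the highest Hes1, with 726 UMIs and 290 CPM (270 to 312) in control and 1064 UMIs and 328 CPM (309 to 348) in model cells. The cycling sub-cluster led by H2ac8 and Pclaf held 202 and 231 CPM, and another led by Edn1 and F3 held 127 and 136 CPM. The 3 levels were in the same order in both libraries with intervals that did not overlap. Notch1 had another order, with 77.2 and 85.7 CPM in the Olfm4 group, 81.2 and 67.5 CPM in the Edn1 group and 30.4 and 34.0 CPM in the cycling group. In the Olfm4 group Notch2 went from 41 to 28 UMIs, 1.90-fold lower (1.15 to 3.19), where 2.24% of features were called lower. In an unnamed sub-cluster led by F3, Apol10a and Car4 (58 and 62 cells), Hes1 went from 138 to 350 UMIs, or 73.8 to 128 CPM, a ratio of 1.73 (1.42 to 2.12), where 4.27% of features were called higher.

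**Figure D4:**
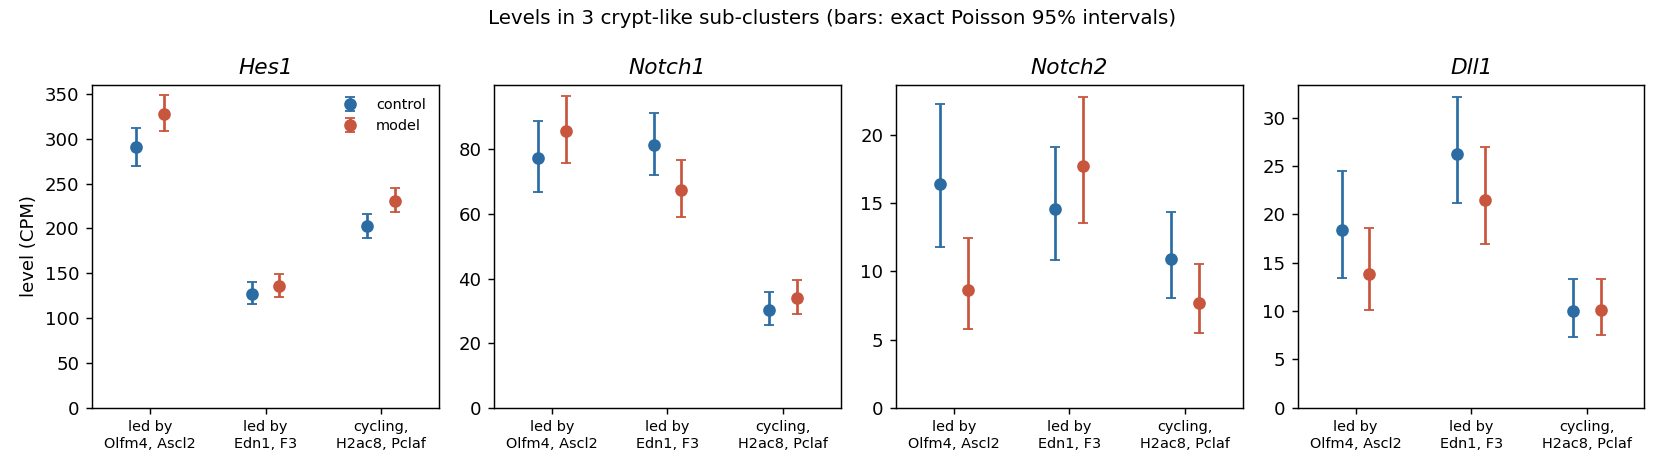
Levels (CPM, linear axes from 0) of Hes1, Notch1, Notch2 and Dll1 in 3 crypt-like sub-clusters, control in blue and model in red, with exact Poisson 95% intervals. Hes1 is highest in the group led by Olfm4 and Ascl2, whereas Notch1 is lowest in the cycling group.

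Neurog3 marks a short stage of enteroendocrine differentiation, and its UMIs sat in few cells. In the control library 17 kept cells had at least 1 Neurog3 UMI, of which 10 were enteroendocrine-like, 4 goblet-like, 3 crypt-like and 0 elsewhere. In the model library there were 34, of which 16 were enteroendocrine-like, 13 goblet-like, 4 crypt-like and 1 elsewhere. Over the 5 classes together Neurog3 had 106 and 170 UMIs, or 4.88 and 7.21 CPM, a ratio of 1.48 (1.15 to 1.90), just under the 1.5-fold rule. Cells with at least 3 UMIs were 7 of 1270 in control (0.551%, 0.222 to 1.13) and 19 of 1301 in model (1.46%, 0.881 to 2.27), with counting intervals that overlapped.

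Other genes were counted in the goblet-like cells with Neurog3. Of the 13 model cells, 11 had a Dll1 UMI, 5 Dll4, 2 Atoh1, 2 Neurod1 and 0 Spdef. Of the 4 control cells, 4 had Dll1, 3 Dll4, 2 Atoh1, 2 Spdef and 0 Neurod1. When cells were clustered again, 9 of the model goblet-like cells joined the enteroendocrine-like sub-cluster led by Gip, Ghrl and Cck, and these 9 held 63 of the 85 Neurog3 UMIs, with 40 of Dll1 and 0 of Atoh1 and Spdef. In that sub-cluster (58 and 97 cells) Neurog3 went from 57 to 120 UMIs, a ratio of 1.79 (1.29 to 2.49), and Dll1 from 27 to 58 UMIs, a ratio of 1.82 (1.14 to 2.99), where 3.46% of features were called higher. With each library clustered alone, Neurog3 was called lower in goblet-like cells (37 and 7 UMIs). Its ratio was also below 1 without the cells that lost their class name on this second clustering (17 and 1 UMIs) and with cells named by their own marker scores (9 and 1), both under the minimum for a call. The goblet ratio of Neurog3 therefore rests on which class a few cells were placed in.

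**Figure D5:**
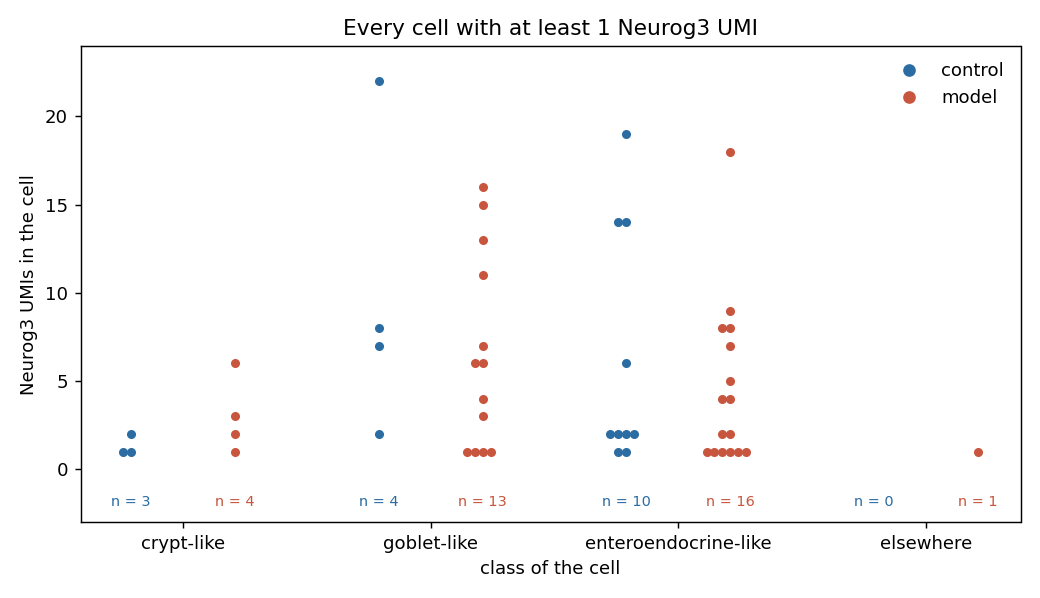
Each point is 1 kept cell with at least 1 Neurog3 UMI, placed by the class of the cell (x axis) and its number of Neurog3 UMIs (y axis), control in blue and model in red, with the number of cells below. Goblet-like cells number 4 in control and 13 in model, and enteroendocrine-like cells 10 and 16.

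Atoh1 and Spdef were also counted in the same cells. In control goblet-like cells 113 of 163 cells with Atoh1 also had Spdef (69.3%), against 30.5% of cells without Atoh1. In the model library it was 120 of 176 (68.2%) against 39.3%. Cells with Atoh1 were deeper, with medians of 13058 and 11180 UMIs against 3424 and 5413. After thinning to 1000 UMIs the shares were 12.9% against 10.2% in control and 18.9% against 11.6% in model cells, from 4 and 7 cells with both genes. These counts are too few to compare, and the part of depth was not tested. In enteroendocrine-like cells 9 of 10 control and 14 of 16 model cells with Neurog3 also had Neurod1.

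Other genes of the pathway were counted from 7 lists with 106 genes. Over all features, 1.75%, 4.85%, 3.5% and 8.53% were called higher in crypt-like, goblet-like, enteroendocrine-like and tuft-like cells. In the same order, 4.01%, 4.6%, 3.79% and 6.53% were called lower. Single calls among the 30 genes that follow were near these shares. Of 30 genes that process, modify or transmit the Notch signal, 26 had enough UMIs in crypt-like cells, with 0 called higher and Aph1b, a gamma-secretase subunit, called lower (25 and 14 UMIs, ratio 0.481, 0.231 to 0.962). The list's median log2 ratio was −0.05, beside −0.03 over all features. In goblet-like cells 25 were counted, with Mib2, a ubiquitin ligase that activates ligands, called higher (21 and 34 UMIs, 1.82, 1.03 to 3.31) and Neurl1a, another one, called lower (17 and 3 UMIs, 0.199, 0.0373 to 0.687), and a median of 0.04 beside −0.04. In enteroendocrine-like cells 0 of 24 were called, between Neurl1a at 0.467 (0.208 to 1.00) and Psen2 at 1.73 (0.969 to 3.21), with a median of −0.01 beside −0.02. In tuft-like cells 1 of 17 was called, the gamma-secretase subunit Ncstn, lower (60 and 35 UMIs, 0.637, 0.407 to 0.983), with a median of 0.06 beside 0.03.

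Of 6 further ligands and receptors, 3 had enough UMIs in crypt-like cells, 1 in goblet-like, 2 in enteroendocrine-like and 0 in tuft-like cells, and 0 were called. The ligand Jag1 had 268 and 325 UMIs in crypt-like cells (1.04, 0.883 to 1.23), 35 and 33 in goblet-like cells (1.06, 0.640 to 1.76) and 23 and 21 in enteroendocrine-like cells (0.711, 0.374 to 1.34). Of 10 genes on a list of other Notch targets and Hes family members, 3 were counted in crypt-like cells and 0 called. They ran from Olfm4 (0.785, 0.775 to 0.796) to Hes6 (1.08, 0.974 to 1.19). In goblet-like cells 1 of 4 was called, the Hes family member Hes2, higher (10 and 24 UMIs, 2.70, 1.25 to 6.33). Hes2 was at 2.04 and 5.51 CPM there, against 22.8 and 21.3 CPM in enterocyte-like cells. Enterocyte markers were also higher in model goblet-like cells, as given above, and their part in the Hes2 call was not tested. In enteroendocrine-like cells 0 of 3 were called. In tuft-like cells 1 of 2 was called, the stem cell gene Olfm4, higher (62 and 213 UMIs, 3.75, 2.82 to 5.06), in a class where crypt markers summed to 1897 and 1677 CPM.

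Of 23 other enteroendocrine transcription factors, 20 had at least 20 UMIs in each library over the 5 classes, and 19 of those were highest in enteroendocrine-like cells in both. Within that class 21 were counted, with 0 called higher and 3 lower, and a median log2 ratio of −0.29 beside −0.02 over all features. The lower ones were Rfx6 (94 and 78 UMIs, 0.646, 0.472 to 0.882), St18 (122 and 101, 0.645, 0.490 to 0.846) and Hhex (24 and 11, 0.357, 0.158 to 0.757). In goblet-like cells 4 of 10 were called higher and 0 lower, with a median of 0.35 beside −0.04. Insm1, which acts just after Neurog3, went from 38 to 127 UMIs (3.76, 2.60 to 5.56), Nkx2-2 from 7 to 25 (4.02, 1.69 to 11.01), Neurod2 from 3 to 19 (7.13, 2.10 to 37.6) and Pdx1 from 4 to 25 (7.04, 2.43 to 27.8). Without the cells that lost their class name on the second clustering, list genes called higher over all classes went from 17 to 9. In crypt-like cells 2 of 8 were called higher, Insm1 (7 and 38 UMIs, 4.66, 2.06 to 12.4) and Pdx1 (13 and 90, 5.95, 3.31 to 11.6), and in tuft-like cells 0 of 3. Pdx1 also went from 7 to 60 UMIs in enterocyte-like cells (0.630 to 4.63 CPM), outside the classes compared by ratio. Its level in enteroendocrine-like cells was 6.90 and 8.95 CPM, beside 5.37 CPM in model crypt-like and 5.74 CPM in model goblet-like cells.

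Of 12 goblet and Paneth transcription factors, 0 were called higher in any class. Mecom was called lower in crypt-like (450 and 321 UMIs, 0.613, 0.529 to 0.709), goblet-like (53 and 26, 0.553, 0.332 to 0.899) and enteroendocrine-like cells (18 and 10, 0.433, 0.178 to 0.988), and Sox9, a crypt and Paneth factor, in goblet-like cells (477 and 278, 0.656, 0.564 to 0.763). In tuft-like cells 0 of 8 were called. The list's median log2 ratios were −0.32, −0.10, −0.14 and −0.12 in crypt-like, goblet-like, enteroendocrine-like and tuft-like cells (12, 12, 10 and 8 counted). Over all features they were −0.03, −0.04, −0.02 and 0.03. A tuft list held 10 genes, transcription factors together with the enzyme gene Chat. Of these, Runx1 was called lower in crypt-like (144 and 86 UMIs, 0.513), goblet-like (44 and 10, 0.256) and enteroendocrine-like cells (18 and 4, 0.173). Myb was called lower in goblet-like (404 and 217, 0.605) and higher in tuft-like cells (52 and 81, 1.70). Ascl2 was called higher in enteroendocrine-like cells (10 and 32, 2.49). Within tuft-like cells Sox4 was also called higher (46 and 66, 1.57) and Hmx2 lower (106 and 62, 0.639). There 9 genes of the tuft list, Chat among them, were counted, with a median log2 ratio of −0.43 beside 0.03. Of all features in that class 8.53% were called higher and 6.53% lower. In crypt-like, goblet-like and enteroendocrine-like cells 6, 4 and 4 genes of the tuft list were counted, with medians of −0.16, −0.50 and 0.02.

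Of 15 absorptive transcription factors, Creb3l3, a liver and gut lipid metabolism factor, was called higher in crypt-like (233 and 450 UMIs, 1.66, 1.41 to 1.95) and in goblet-like cells (228 and 479, 2.37, 2.02 to 2.78). Prdm1 was called lower in crypt-like (57 and 34, 0.512) and goblet-like cells (75 and 40, 0.601). In tuft-like cells Hnf4g (55 and 83, 1.65) and the intestinal factor Cdx2 (44 and 72, 1.79) were called higher and Cdx1 lower (141 and 73, 0.565). In enteroendocrine-like cells 0 of 14 were called. In crypt-like, goblet-like and tuft-like cells 15, 15 and 12 were counted, with median log2 ratios of 0.09, 0.14 and 0.18. Over all features these were −0.03, −0.04 and 0.03. Enterocyte markers also moved in the goblet-like class, as given above.

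The features whose pattern was most like each gene were ranked by Pearson r of log2(CPM + 1) over 26 class and library values from 15 classes. These values share libraries and class totals, and r is a description over 16245 features. For Atoh1 they were Chrm1 (0.901), Galnt5 (0.900), Spink4 (0.897), Ces1c (0.896) and Ern2 (0.896), and for Spdef Ern2 (0.904), Lrrc26 (0.901), Misp3 (0.899), Tpsg1 (0.895) and Capn8 (0.894). For Neurog3 they were Serpina1b (0.975), Slc39a2 (0.971), Insm1 (0.966), Ttc39aos1 (0.960) and Cacna1b (0.955), and for Neurod1 Scg5 (0.962), Celf3 (0.958), Rab3c (0.952), Unc79 (0.951) and Adgrg4 (0.951). Spink4 and Tpsg1 were among the goblet markers used here and Scg5 among the enteroendocrine ones.

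Dll1 was most like Itgb4 (0.865), B3gnt3 (0.855), Lratd2 (0.849), Ctnnb1 (0.830) and Slc25a24 (0.828), and Dll4 most like Ptprr (0.888), Plxna2 (0.875), Mcf2l (0.874), Efnb2 (0.865) and Gm38036 (0.835). For Hes1 they were Hs2st1 (0.909), Cebpd (0.865), Lancl2 (0.847), Igf1r (0.844) and Dusp23 (0.841). Notch1 was nearest to Jade2 (0.837), Arid5b (0.835), Dusp7 (0.822), Atp1b3 (0.820) and Tubgcp5 (0.818), Notch2 to Tmem168 (0.830), Fhl3 (0.828), Pde1b (0.825) and Gm42819 (0.818), and Gfi1 to Ptprcap (0.815), Grap2 (0.797), Klrb1 (0.773), Cdkn2a (0.769) and Gm11346 (0.758). Among the 10 genes themselves r was 0.782 for Neurog3 with Neurod1, 0.772 for Atoh1 with Spdef and 0.723 for Dll1 with Dll4.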

How the data were processed

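The matrices deposited by the authors hold counts of UMIs per gene and barcode, not normalised, as whole numbers. Per the file headers the software was Cell Ranger 7.0.1, but version 4.0 and the build GRCm39 stand in the submitters' processing notes. Neither the annotation nor how intronic reads were counted is stated in those sources. The control library held 61370270 UMIs over 10259 barcodes and the model library 76701215 over 11468. Kept cells had at least 500 UMIs, 200 genes and at most 25% mitochondrial UMIs. In scanpy 1.11.5 each cell was brought to 10000 UMIs on a log scale, and 2000 variable genes, 30 principal components and 15 neighbours gave 31 Leiden clusters at resolution 1 (igraph 0.11.9). Of these, 26 were named, each needing at least 3 markers at 2-fold or more in at least 10% of its cells. Immunoglobulin and T cell receptor variable, mitochondrial and ribosomal genes and the 116 members and list genes were left out of clustering. After the data were seen, crypt stem and transit-amplifying markers were merged to name 1 crypt class. Scrublet called 0 doublets in either library, which was not taken to mean that doublets were absent, and no cell was removed. The doublet alternative removed a fixed 8% of cells with the highest Scrublet scores, 586 in control and 633 in model. Whether those cells were doublets was not tested.

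Poisson and binomial intervals were exact (scipy 1.17.1), and ratios were formed over all features of a class with at least 20 UMIs. The rule and its intervals were tested on simulated data. All 10 members are named, with each list gene called in a class (the highest and the lowest ratio where none was called) and the 5 features most like each member, except that some of these genes are not reported here. The members and lists were chosen with earlier results of these data known. Alternatives changed the cell filters, the clustering, the naming of cells, depth, doublets, class totals, centring and the minimum of UMIs.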

Additional observations from a re-analysis of the deposited data

Results flagged for a closer look

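Notch1, the receptor, was called in opposite directions in different classes under the same contrast. Its model over control ratio was 0.538 in goblet-like cells (88 and 42 UMIs), 1.86 in enteroendocrine-like cells (23 and 55 UMIs) and 2.73 in tuft-like cells (10 and 25 UMIs), and in crypt-like cells, with most of its UMIs, it was 0.935 and not called. The difference between classes was not tested, because each group holds 1 library.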

How the results depend on the processing

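No paired analysis was possible because each group has 1 library and the groups share 1 replicate number. Over 326 ratios of single genes under the alternatives, 291 stayed inside their main counting interval and 32 left it. Another 3 reversed the direction of a ratio called in the main analysis, and reversals were counted for such ratios only. Ratios not called also crossed 1, among them Neurog3 (0.902 in the main analysis) and Neurod1 (0.851) in enteroendocrine-like cells, with ranges given below. Of the 326 ratios, 281 kept their call, 20 did not and 25 were left with under 20 UMIs. The 3 reversals were all of Neurog3 in goblet-like cells, where the main log2 ratio was 1.30. It was −2.01 with each library clustered alone and −2.99 with cells named by their own marker scores. Without cells that lost their class name on clustering again, an alternative chosen after seeing the data, it was −3.72. Genes called higher, 5 in the main analysis, were 2 with at most 10% mitochondrial UMIs (where tuft-like cells were too few), 10 with the libraries clustered alone and 0 after thinning, where 10 pairs had enough UMIs. Genes called lower, 1 in the main analysis, were 3 with the libraries clustered alone, 4 with cells named by their own scores and 2 without the highest doublet scores. List genes called higher went from 17 to 5 after thinning, 11 with at least 50 UMIs and 9 without cells that lost their class name. List genes called lower went from 18 to 10 with at most 10% mitochondrial UMIs, 33 with the libraries clustered alone and 7 after thinning. The share of all features called was not computed under the alternatives, so these counts cannot be set beside it. Over the 4 classes with enough cells, all 10 genes had the same highest class in both libraries; after thinning 6 of 6 genes with enough UMIs did. The ratio of Dll4 in goblet-like cells stayed between 1.598 and 2.40 under its 13 alternatives. Neurog3 in enteroendocrine-like cells, not called in the main analysis, ranged from 0.649 to 4.62, and Neurod1 there from 0.652 to 1.36. Atoh1, Dll4, Notch2, Spdef, Gfi1, Neurog3 and Neurod1 each had under 20 UMIs over both libraries in at least 1 class compared by ratio. The part of depth in these low counts was not tested. The causes of these changes were not tested.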

Other observations

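Outside the crypt and secretory classes the Notch genes were high in cells of vessels and of the immune system. Endothelial cells held 359 and 473 CPM of Notch1 (145 and 107 UMIs), 86.6 and 217 CPM of Dll4 (35 and 49 UMIs) and 374 and 504 CPM of Hes1, each above the crypt-like level in the same library. Dll4 is known for its role in sprouting vessels. In smooth muscle or pericyte-like cells, 48 in control and 63 in model, Hes1 was at 1283 and 1399.7 CPM. Macrophage or monocyte-like cells held 118 and 181 CPM of Notch1 and 60.1 and 45.4 CPM of Notch2.

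Gfi1, described above for its secretory role, had its highest level in T cell-like cells, with 234 and 535 UMIs (55.2 and 75.8 CPM), followed in the control library by plasma cell-like cells with 94 UMIs (21.7 CPM). Goblet-like cells held 35 and 53 UMIs of it.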
